A study of Mus musculus with 6 samples.

Results

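Mitochondrial ribosomal proteins are the protein component of the ribosome that mitochondria use to translate the few messages encoded in their own DNA. The genes described here are the protein-coding rows of the deposited count table whose symbol starts with Mrpl or Mrps followed by a digit. That rule gives 78 of 23842 genes, 49 named for the large subunit (Mrpl) and 29 for the small subunit (Mrps). The rule itself uses no measured difference, though it was chosen with earlier results of these data known. All 78 passed the filter on low counts, with 181 to 3518 counts per gene and library.

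The mitochondrial ribosome is built from 12S and 16S ribosomal RNA made inside the organelle and from proteins encoded in the nucleus, made in the cytosol and imported. One set of these proteins descends from bacterial ribosomal proteins and another has no bacterial counterpart. The small subunit binds and decodes the messenger RNA, and the large subunit joins the amino acids and delivers the chain to the inner membrane, where nearly all of its products become respiratory chain subunits. Symbols do not always name the place of the protein: those of Mrps30 and Mrps18a sit in the large subunit, and that of Mrps36 is now counted as part of the 2-oxoglutarate dehydrogenase complex.

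Total RNA was sequenced from fibroblasts cultured from C57BL/6 mouse embryos. The comparison is between 3 libraries labelled with the genotype NGLY1-/- and 3 labelled wild type (WT), all grown without treatment in high-glucose medium with serum. NGLY1 is the cytosolic enzyme that removes N-linked glycans from misfolded glycoproteins. The knockout titles carry the letters PK, which the labels leave unexplained, and the deleted stretch of the gene is not named. Whether replicates are different embryos or different dishes is also not stated, so the p-values reflect library-to-library spread that may be technical.

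Libraries held 27323577 to 37841558 counts. Counts of Ngly1 itself were 618, 420 and 457 in the knockout-labelled libraries and 668, 632 and 307 in the wild-type libraries, so a whole-gene count cannot check the labels, on which all directions below rest. Among the fibroblast markers, Col1a1 lay at 1017 to 1265 CPM (counts scaled to library size, edgeR's cpm) in the 6 libraries, and Lum had at most 1 count in a library. Summed marker levels of other cell types were 0.701 to 1.53 against 1.87 to 2.62 CPM (knockout-labelled against wild type) for epithelium, with Epcam at most 0.152. Krt8 (22.6-fold) and Cdh1 (2.84-fold) were called lower, both at no more than 1.05 CPM in a library. Markers of macrophages and blood summed to 2.48 to 2.65 against 2.01 to 3.74 CPM, nearly all Cd68, with Ptprc at most 0.0737. Endothelial markers summed to 2.73 to 2.86 against 1.49 to 2.2 CPM, with Pecam1 at most 0.369 and Kdr called higher (1.93-fold). Muscle markers summed to 3.33 to 3.84 against 0.146 to 0.836 CPM, with Des called higher (7.47-fold). Neural markers summed to 259 to 351 against 201 to 343 CPM, mostly Nes, with Gfap at most 0.0295 and Tubb3 (36.6 ± 3.84 against 13.1 ± 2.04 CPM) and Sox2 (7.72-fold) called higher. Of the 9 fibroblast markers tested, 1 was higher and 6 were lower in the knockout-labelled libraries, and their summed level was 3763 to 4313 CPM against 6119 to 6880 CPM. The part of these markers in the results below was not tested. In RNA from a whole culture, fewer cells of a type and less RNA per cell cannot be told apart.

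Most mitochondrial ribosomal protein genes that changed were higher in the knockout-labelled libraries. Of the 78, 41 were higher and 11 lower at a false discovery rate of 5% in edgeR's quasi-likelihood test, and 26 were not called. The share called, 66.7%, lies near the background, since 60.9% of all 15039 tested genes were called, and 65.8% of the 6447 whose mean CPM lay within the members' range. By direction, 52.6% of the members were higher against 30.7% of all tested genes and 37.5% of those in the same CPM range. The lower share was 14.1%, against 30.2% and 28.3%. The median log2 fold change of the members was 0.35 (quartiles -0.09 and 0.72), beside -0.04 (-0.64 and 0.55) over all tested genes. Single changes were small: 4 members were at least 2-fold higher and 1 at least 2-fold lower, where 13.6% and 14.9% of all tested genes were. For 55 members the groups did not overlap at all, 41 higher and 14 lower, against a background of 67.3% of all tested genes (33.8% in the higher and 33.5% in the lower direction). With library totals as the only scaling, the test called 36 members higher and 17 lower, and the all-gene median log2 fold change was -0.16.

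**Figure D1:**
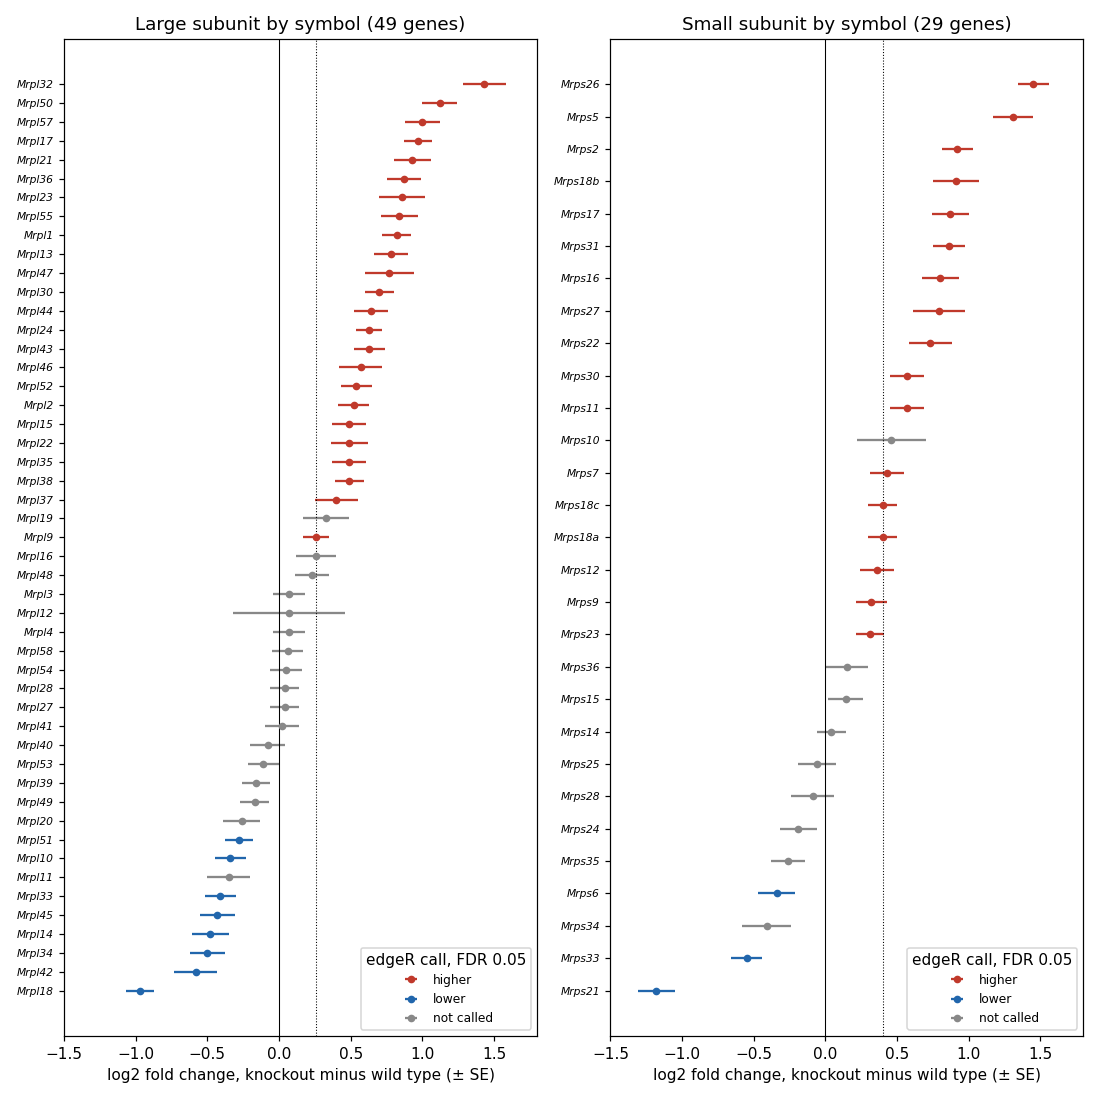
Log2 fold change, knockout-labelled minus wild type, with its standard error for each member, by the subunit its symbol names (49 large, 29 small). Colour gives the call at a false discovery rate of 5% and the dotted line the median of the subunit, 0.26 for the large and 0.40 for the small. Both subunits have most points to the right of 0 and a short tail to the left.

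The small subunit genes held both extremes of the list. Of 29, 17 were higher, 3 lower and 9 not called, with a median log2 fold change of 0.40. Mrps26 (gene ID 99045, chromosome 2, 130563757 to 130565394 in GRCm38), whose product has no bacterial counterpart, read 88.2, 80.1 and 70.7 CPM in the knockout-labelled libraries and 27.6, 28.8 and 31.0 CPM in the wild-type libraries. Every knockout-labelled value was above every wild-type value, and the rise was 2.73-fold (log2 fold change 1.45, SE 0.11, adjusted p = 2.84e-06). Mrps5 (gene ID 77721, chromosome 2, 127587426 to 127603986), the counterpart of the bacterial protein at the entrance of the messenger RNA channel, went from 39.3 ± 8.07 in the wild type to 97.5 ± 3.64 CPM (SD, n = 3 each), 2.49-fold higher. Mrps2 (chromosome 2), counterpart of bacterial S2, read 44.1, 45.2 and 49.9 CPM against 22.1, 25.4 and 25.9 CPM, again with no overlap. These 3 genes lie on chromosome 2, whose tested genes had a median log2 fold change of 0.24. Relative to that median their log2 fold changes were 1.21, 1.07 and 0.68. The part of their chromosome in the difference was not tested.

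Rises in the small subunit were not limited to that chromosome. Mrps31 on chromosome 8 went from 18.6 ± 1.27 to 33.7 ± 2.56 CPM, and Mrps17 on chromosome 5, a protein that binds the 12S ribosomal RNA, from 28.4 ± 4.19 to 51.8 ± 5.03 CPM (SD, n = 3 each). Mrps16 on chromosome 14, mutated in a human mitochondrial translation disease, rose 1.74-fold, from 21.7 ± 0.674 to 37.8 ± 6.46 CPM. Mrps22, also a disease gene, rose 1.66-fold although the genes of its chromosome 9 had a median log2 fold change of -0.45.

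Only 3 small subunit genes fell. Mrps21 (gene ID 66292, chromosome 3, 95862634 to 95871514), counterpart of bacterial S21, read 16.4, 17.4 and 13 CPM in the knockout-labelled libraries and 35.2, 37.1 and 33.8 CPM in the wild-type libraries. Its groups did not overlap, and the decrease was 2.27-fold (log2 fold change -1.18, SE 0.13, adjusted p = 3.33e-05), the one member lower by at least 2-fold. Mrps33, a protein without bacterial counterpart, went from 28.2 ± 2.07 to 19.3 ± 1.13 CPM. It lies on chromosome 6, whose genes had a median log2 fold change of -0.41, and relative to that median its own was -0.13. Mrps6, counterpart of bacterial S6, was the called member nearest the threshold (adjusted p = 0.0415); that call was lost in limma-voom (adjusted p = 0.0521), without the low-count filter (0.0538), without both libraries numbered 3 (0.086) and without each single library except wild-type replicate 1, with an adjusted p of 0.0765 to 0.134 in the latter cases. The uncalled member nearest to it was Mrps34, with a log2 fold change of -0.41 and an adjusted p of 0.0546 in edgeR, and 0.0478 in DESeq2.

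**Figure D2:**
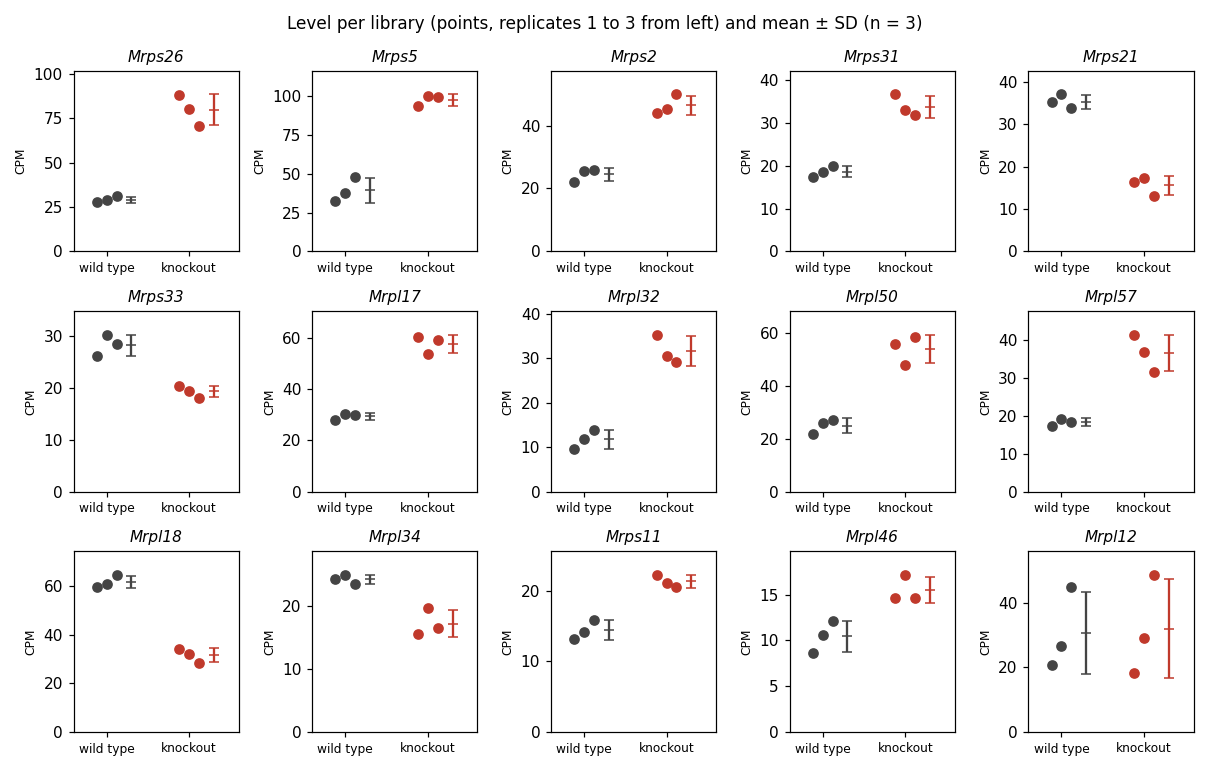
CPM of 15 members in each library (points, replicates 1 to 3 from left to right) with mean and SD (n = 3), wild type in grey and knockout-labelled in red; each axis starts at 0. The groups stand apart in 14 of the 15 panels, while Mrpl12 overlaps, at 18.4 to 48.8 CPM for the knockout labels and 20.6 to 44.9 CPM for the wild type. Most panels show members named because they were called and separated, so the 14 follows largely from that choice. Over all tested genes the groups did not overlap for 67.3%.

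Of the 49 large subunit genes, 24 were higher, 8 lower and 17 not called, with a median log2 fold change of 0.26. Mrpl17 (gene ID 27397, chromosome 7, 105803782 to 105811087), at the exit of the peptide tunnel, had the smallest p: it read 60.2, 53.6 and 59.3 CPM against 27.8, 30.2 and 30.0 CPM in the wild type. With no overlap between the groups, it rose 1.97-fold (log2 fold change 0.97, SE 0.10, adjusted p = 1.85e-05). Mrpl32 (gene ID 75398, chromosome 13, 14610301 to 14613037), which the m-AAA protease of the inner membrane must cut before the large subunit can form, had the largest rise of the subunit, 2.70-fold, from 11.8 ± 2.11 to 31.7 ± 3.26 CPM (SD, n = 3 each). The genes of chromosome 13 were higher as a group (median log2 fold change 0.43), and relative to them that of Mrpl32 was 1.0. Mrpl50 and Mrpl57, both without bacterial counterpart, rose from 24.9 ± 2.68 to 53.9 ± 5.37 and from 18.3 ± 1.01 to 36.5 ± 4.83 CPM. Mrpl1, the protein of the L1 stalk through which spent transfer RNA leaves, went from 27.3 ± 1.21 to 48.2 ± 4.19 CPM, and the small zinc-binding Mrpl36 from 13.8 ± 0.781 to 25.2 ± 2.20 CPM.

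Large subunit genes that fell did so mostly by less than 1.5-fold. The exception was Mrpl18 (gene ID 67681, chromosome 17, 12911345 to 12917787), of the central protuberance at the top of the subunit, with 34.2, 31.9 and 28.4 CPM against 59.7, 60.6 and 64.6 CPM. Its decrease, with no overlap, was 1.96-fold (log2 fold change -0.97, SE 0.10, adjusted p = 2.77e-05). Its range overlaps that of Tcp1, a chaperonin subunit gene on the other strand that was also lower (log2 fold change -0.40), and with the strand setting of the counting unknown the 2 genes may share reads. Mrpl14 and Mrpl57 likewise overlap Tmem63b and Ska3. Mrpl34 and Mrpl33, small proteins bound to the 16S ribosomal RNA, fell from 24.3 ± 0.778 to 17.2 ± 2.19 and from 45.5 ± 2.63 to 34.3 ± 3.01 CPM. Mrpl42 fell 1.49-fold, Mrpl14, which lies at the face toward the small subunit, 1.39-fold, and Mrpl45, which ties the ribosome to the inner membrane, 1.35-fold.

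By place in the large subunit, the 6 genes of the exit tunnel and membrane anchor, a hand-placed group, were all called, where 60.9% of all tested genes were: Mrpl17, Mrpl22, Mrpl23, Mrpl24 and Mrpl47 were higher, by 1.40-fold to 1.97-fold, and Mrpl45 lower. Of the 6 genes of the central protuberance, Mrpl38 and Mrpl46 were higher, Mrpl18 lower, and 3 were not called. In the stalk that recruits translation factors, Mrpl10 was 1.27-fold lower (adjusted p = 0.0203). That call was lost when knockout replicate 2 (0.0774) or 3 (0.105), wild-type replicate 2 (0.0899) or both libraries numbered 3 (0.0662) were left out. Mrpl11 was not called, at a log2 fold change of -0.35 (adjusted p = 0.0646). Mrpl12, the protein of that stalk which contacts the factors, read 18.4, 29 and 48.8 CPM in the knockout-labelled libraries and 20.6, 26.6 and 44.9 CPM in the wild type (log2 fold change 0.07, SE 0.39). Within each group its highest value was in the library numbered 3, and its coefficient of variation, 48.0% and 41.2%, was the largest of the 78 in both groups, beside a median of 8.58% and 8.41%. Mrps10 varied next most in the knockout-labelled libraries (33.3%), with 23.1, 33.6 and 45.8 CPM, and was not called (log2 fold change 0.46, adjusted p = 0.128).

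Sorted by origin, 25 of the 46 members with a bacterial counterpart were higher and 7 lower, with a median log2 fold change of 0.38. Of the 30 without one, 14 were higher and 4 lower, with a median of 0.19. As shares, 54.3% and 46.7% were higher and 15.2% and 13.3% lower, beside 30.7% and 30.2% of all tested genes. Mrps18a and Mrps18b were placed in neither class, and the class without a counterpart includes Mrps36. All 3 paralogs of bacterial S18 rose: Mrps18c, which fills the bacterial place, from 19.7 ± 0.59 to 25.9 ± 0.379 CPM, Mrps18b from 27.3 ± 7.25 to 51.2 ± 1.14 CPM and the large subunit protein Mrps18a from 36.2 ± 2.10 to 47.6 ± 2.80 CPM (SD, n = 3 each). These are different genes on chromosomes 5 and 17, and shared reads between them were not examined. Mrps30, the other protein of the large subunit with a small subunit symbol, rose 1.48-fold on chromosome 13, and relative to that chromosome's median its log2 fold change was 0.14. For Mrps36 the log2 fold change was 0.15, not called (adjusted p = 0.379). In addition, 4 pseudogene rows of the family held 0 to 18 counts per library.

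Promoters are printed for genes at both ends of the list and for 1 member whose start lies beside that of another, to show the letters beside the values. Each is 300 bases, 250 before and 50 after a RefSeq start, 5′ to 3′ on the gene's strand in GRCm38.p6. The Mrpl18 window lies inside the range given for that gene above, which extends further upstream. Capitals mark matches, on either strand, to CCGGAAG (the core bound by ETS factors such as GABPA), TGCGCA (the core of the NRF1 site), ATGGCGG (the core of the YY1 site) or CACGTG (an E-box, bound by MYC among others). No 2 of these motifs overlap in the sequences shown.
Mrps26, highest rise, chr2:130563507-130563806, plus strand: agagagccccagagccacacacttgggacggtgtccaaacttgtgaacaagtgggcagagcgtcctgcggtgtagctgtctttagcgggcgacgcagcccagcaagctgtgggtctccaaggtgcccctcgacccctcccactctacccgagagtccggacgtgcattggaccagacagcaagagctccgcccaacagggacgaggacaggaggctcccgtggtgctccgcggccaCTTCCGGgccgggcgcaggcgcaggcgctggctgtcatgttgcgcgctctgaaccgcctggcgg
Mrpl17, smallest p of the large subunit, chr7:105811038-105811337, minus strand: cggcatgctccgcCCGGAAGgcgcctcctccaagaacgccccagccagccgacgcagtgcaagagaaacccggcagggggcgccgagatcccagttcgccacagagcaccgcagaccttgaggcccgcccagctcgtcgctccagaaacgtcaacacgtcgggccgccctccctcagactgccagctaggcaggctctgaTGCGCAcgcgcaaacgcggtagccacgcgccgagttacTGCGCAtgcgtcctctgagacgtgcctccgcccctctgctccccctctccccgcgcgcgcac
Mrps21, largest decrease, chr3:95871465-95871764, minus strand: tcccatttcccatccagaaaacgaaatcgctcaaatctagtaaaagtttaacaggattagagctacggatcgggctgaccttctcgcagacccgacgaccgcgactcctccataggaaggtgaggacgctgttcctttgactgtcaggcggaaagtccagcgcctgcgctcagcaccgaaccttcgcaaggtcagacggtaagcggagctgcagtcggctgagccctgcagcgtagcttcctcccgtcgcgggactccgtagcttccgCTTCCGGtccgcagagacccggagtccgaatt
Mrpl18, second largest decrease, chr17:12916042-12916341, minus strand: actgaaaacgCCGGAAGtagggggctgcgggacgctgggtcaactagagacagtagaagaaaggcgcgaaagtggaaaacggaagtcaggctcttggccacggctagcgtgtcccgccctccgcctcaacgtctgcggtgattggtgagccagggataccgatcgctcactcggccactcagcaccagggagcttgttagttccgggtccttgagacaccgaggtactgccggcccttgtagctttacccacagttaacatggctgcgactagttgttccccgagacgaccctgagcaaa
Mrps11, start beside that of Mrpl46, chr7:78782881-78783180, plus strand: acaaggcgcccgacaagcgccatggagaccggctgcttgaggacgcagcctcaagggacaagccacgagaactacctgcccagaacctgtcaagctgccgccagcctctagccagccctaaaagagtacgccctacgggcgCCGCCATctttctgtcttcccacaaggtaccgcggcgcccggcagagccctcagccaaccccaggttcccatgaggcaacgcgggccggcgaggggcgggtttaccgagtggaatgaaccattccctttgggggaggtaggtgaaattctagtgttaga

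The ETS core stands in promoters of both directions here: in Mrps26 and Mrpl17, which rose, and in Mrps21 and Mrpl18, which fell. Mrpl17 also holds the NRF1 core, and the Mrps11 sequence only the YY1 core. Sequences were found for 69 of the 78 members (75 promoters, since a few genes have several). The ETS core was in 34.7% of them, beside 16.6% of the promoters of all tested genes and 8.86% of all 32851 promoters. The NRF1 core was in 29.3% of the members' promoters (13% and 7.76%), the YY1 core in 17.3% (7.55% and 4.05%) and the E-box in 9.33% (9.7% and 7.15%). Among members, the ETS core was in 15 of 41 promoters of genes called higher and in 6 of 11 of genes called lower. The NRF1 core was in 16 of 41 and 3 of 11, and the YY1 core in 11 of 41 and 0 of 11. Here 41 counts promoters and not genes. Mrpl2 enters with overlapping windows that hold the same E-box match. Mrps16 enters with overlapping windows that share an NRF1 match, while the ETS core is not in all of them. Longer patterns searched first were found in 8 of 41 and 3 of 11 for NRF1, the opposite order, and in 6 of 41 and 0 of 11 for YY1. A match describes letters in this window and is not a binding site.

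Mrpl46 and Mrps11, a large and a small subunit gene, face away from each other on chromosome 7 with starts 30 bases apart in GENCODE. The Mrps11 sequence above covers both starts and runs into the Mrpl46 gene, where its marked YY1 core lies. Mrpl46's own promoter window holds none of the 4 motifs. Mrpl46 read 14.7, 17.2 and 14.7 CPM against 8.68, 10.6 and 12.1 CPM in the wild type. Mrps11 read 22.3, 21.1 and 20.6 CPM against 13.2, 14.2 and 15.9 CPM. Both were separated between groups, and both had a log2 fold change of 0.57. In all, 23 members had a start facing away from another tested gene's start within 1000 bases, overlaps of up to 200 bases included. Of the 14 whose member was higher, the neighbour was higher for 6, lower for 2 and not called for 6; the pair just described enters from both sides. Of the 4 whose member was lower, the neighbour was lower for 3. Over all tested genes, 30.7% were higher and 30.2% lower. Neighbours also share their chromosome, so a shared start and a shared chromosome cannot be told apart. Mrpl18 with Tcp1, Mrpl14 with Tmem63b and Mrpl21 with Ighmbp2 were each called in the same direction. The ranges within each of these pairs overlap, so they may share reads. Mrpl32 rose beside Psma2, a proteasome subunit gene 75 bases away that was not called (log2 fold change 0.10, adjusted p = 0.455). Mrpl30 and its neighbour Mitd1 both rose, the latter with a log2 fold change of 1.43. Mrpl2 rose 1.43-fold while Klc4 was lower (log2 fold change -1.24); the RefSeq ranges of these genes overlap on opposite strands, so they may share reads.

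The members together took 0.261% to 0.291% of all counts in the knockout-labelled libraries and 0.231% to 0.252% in the wild type. Summed over the 49 large subunit genes, the level was 1940, 1904 and 1782 CPM in the knockout-labelled libraries and 1473, 1603 and 1702 CPM in the wild type. Summed over the 29 small subunit genes, it was 1029, 1024 and 998 CPM against 676, 719 and 818 CPM. Neither sum overlapped between the groups. Within the wild type, replicate 3 stood nearest the knockout-labelled libraries and gave the highest wild-type value for 54 of the 78 members. Without it the median log2 fold change of the large subunit went from 0.26 to 0.46 and that of the small subunit from 0.40 to 0.44.

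The ratio of the large to the small subunit sum, which does not depend on library scaling, was 1.89, 1.86 and 1.79 in the knockout-labelled libraries and 2.18, 2.23 and 2.08 in the wild type, with no overlap. Dropping the members on all shifted chromosomes kept the groups apart, at 2.67, 2.67 and 2.57 against 2.80, 2.93 and 2.73, a smaller gap. Dropping only the 4 members of chromosome 2, a choice made after seeing the data, gave ratios of 2.40, 2.37 and 2.27 against 2.46, 2.53 and 2.37, and these overlap. Without Mrps5 and Mrps26 alone they were 2.29, 2.26 and 2.15 against 2.39, 2.45 and 2.30. The mean log2 CPM of the large minus that of the small subunit, which weights genes equally, was 0.17 ± 0.04 in the knockout-labelled libraries and 0.23 ± 0.04 in the wild type (SD, n = 3 each). By this measure the groups overlapped, at 0.13 to 0.20 against 0.19 to 0.26. Comparing medians, the log2 fold change of the large subunit was 0.14 below that of the small one in the 6 libraries. The order turned when wild-type replicate 3 was left out (large minus small 0.02), without the shifted chromosomes defined below (0.06) and relative to each chromosome's median (0.07). Placed by structure, 26 of 51 large subunit genes were higher and 8 lower, against 15 and 3 of 26 small subunit genes, with medians of 0.33 and 0.38.

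**Figure D3:**
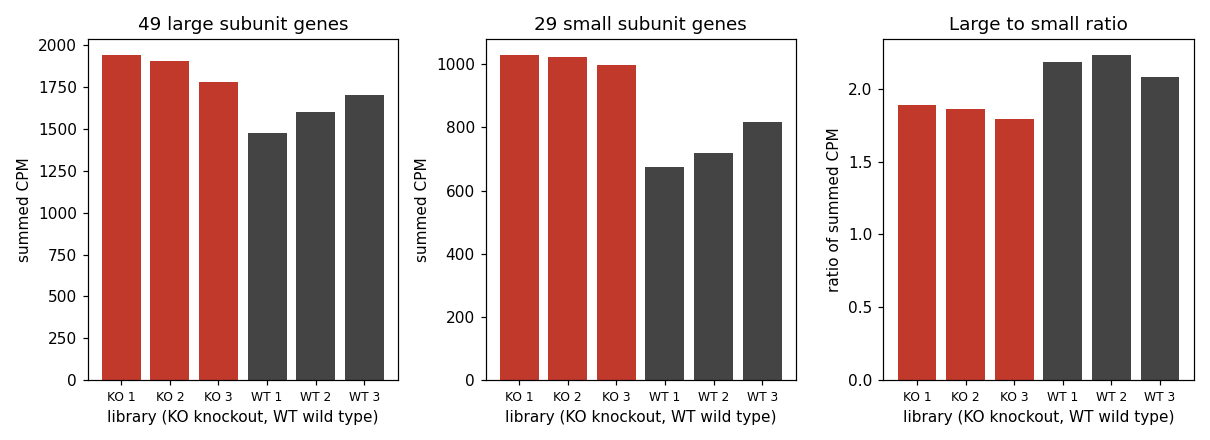
Summed CPM of the 49 large and 29 small subunit genes and the ratio of these sums in each library, with knockout-labelled (KO) libraries in red and wild type (WT) in grey; bars start at 0. Both sums are higher in all 3 knockout-labelled libraries, and the ratio is lower, at 1.79 to 1.89 against 2.08 to 2.23.

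Members lie on 17 chromosomes, and whole chromosomes differ between these groups, so position is given beside the calls. An earlier analysis of these data found the genes of chromosomes 2, 6, 9, 13, 16, 18, X and Y shifted as groups, and 22 members lie on them. On them, 9 members were higher and 3 lower. Elsewhere 32 of 56 members were higher and 8 lower, with a median log2 fold change of 0.40. On chromosome 6 the 7 members had a median log2 fold change of -0.11 beside -0.41 for all tested genes there, and on chromosome 16 the 3 members -0.16 beside -0.37. On chromosomes 2 and 13 the members' medians were 1.12 and 0.79 beside 0.24 and 0.43. Set against the median of its own chromosome, the log2 fold change was above 0 for 61 of 78 members, where 56 were above 0 before, and the median was 0.39. Leaving out the 23 members whose range overlaps another gene of the table, 28 of 55 were higher and 7 lower.

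**Figure D4:**
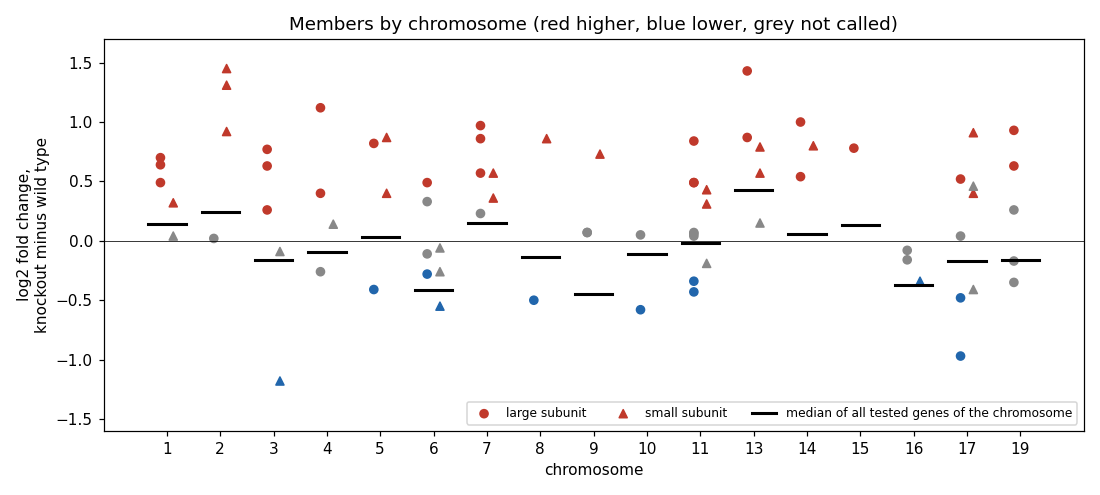
Log2 fold change of each member by chromosome, circles for the large and triangles for the small subunit, with the black bar at the median of all tested genes of that chromosome. The members of chromosomes 2 and 13 lie mostly above high bars, and most members of chromosomes 6, 9 and 16 lie above bars between -0.37 and -0.45.

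Levels compared between genes were scaled by transcript length, over the 73 members with a matched transcript no longer than the gene range. The highest were Mrpl54 at 103 CPM per kb, Mrpl33 at 83.4 and Mrpl28 at 75.1, and the lowest Mrps35 at 3.57, Mrpl48 at 4.08 and Mrpl47 at 4.31. Lengths follow the longest matched transcript, so genes annotated with long ends appear low. With the shortest one Mrpl30, at 79.6, took the place of Mrpl28 among the highest 3. Mrpl54 and Mrpl28 had log2 fold changes of 0.05 and 0.04 and were not called.

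The ribosomal RNA of the same particle varied more between libraries than most of the messenger RNAs for its proteins. Rnr1, the 12S RNA of the small subunit, was at 238, 1267 and 9078 CPM in the knockout-labelled libraries and 2493, 2999 and 6580 CPM in the wild type. Rnr2, the 16S RNA of the large subunit, was at 1949, 7136 and 30713 CPM against 10998, 13474 and 21577 CPM. The groups overlapped for both, and neither was called (adjusted p = 0.917 and 0.864). Their values depended on the libraries kept. Without knockout replicate 3, Rnr1 and Rnr2 were both called lower, with log2 fold changes of -2.40 and -1.74 (adjusted p = 0.0355 and 0.0266). Without both libraries numbered 3 neither was called (log2 fold changes -1.85 and -1.41, adjusted p = 0.292 and 0.303). Without knockout replicate 1 the log2 fold changes were 0.38 and 0.32, also not called. In each group the library numbered 3 was highest. The labels do not describe how ribosomal RNA was removed before sequencing, and its part in this spread was not tested.

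Of the genes that build and serve this ribosome, the assembly and ribosomal RNA modification factors were the longest list: 14 of 28 tested were higher and 1 lower, with a median log2 fold change of 0.47. The background for this and the lists that follow is again 30.7% higher and 30.2% lower over all tested genes. Trmt61b, a methyltransferase for mitochondrial RNA, rose from 3.39 ± 0.564 to 11.5 ± 1.13 CPM. Mterf3, needed for large subunit formation, rose from 15.4 ± 0.261 to 40.1 ± 2.55 CPM, Gtpbp10, a GTPase of large subunit assembly, from 16.4 ± 0.72 to 42.8 ± 2.25 CPM, and Mtg2, another such GTPase, from 15.7 ± 0.941 to 32.6 ± 1.52 CPM (SD, n = 3 each). The single decrease was Spg7 (1.63-fold), a subunit of the m-AAA protease that cuts Mrpl32, while its partner subunit Afg3l2 had a log2 fold change of 0.02; both remarks were chosen after their values were seen. Mterf3 lies on chromosome 13 and Mtg2 on chromosome 2.

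Among the other proteins of the ribosome without an Mrp symbol, listed with the membrane insertase Oxa1l, 0 of 6 were higher and 1 lower in edgeR: Gadd45gip1 of the large subunit fell 1.26-fold (adjusted p = 0.0231). The gene no longer passed without knockout replicate 2 (0.0643) or 3 (0.115), wild-type replicate 2 (0.0645) or 3 (0.0525), or both libraries numbered 3 (0.159). Without wild-type replicate 3, or both libraries numbered 3, Ptcd3 and Chchd1 of the small subunit were called higher (adjusted p = 0.00776 and 0.016, and 0.00417 and 0.00382), and Chchd1 also without knockout replicate 3 (0.0416). Chchd1 was also higher without the low-count filter (adjusted p = 0.0497). Dap3 of the small subunit was lower with library totals only (adjusted p = 0.041). With all libraries in the main fit, Ptcd3, Chchd1, Oxa1l and Dap3 had log2 fold changes of 0.21, 0.28, 0.17 and -0.15. Of 14 mitochondrial translation factors, 5 were higher, near the background share, and 1 was lower: Mtfmt, which formylates the initiator transfer RNA, fell 1.38-fold, a call lost without knockout replicate 3 (adjusted p = 0.0564). Gfm2, which helps split the ribosome after translation, rose from 25.1 ± 1.77 to 48.8 ± 1.16 CPM, Guf1 1.55-fold, the recycling factor Mrrf 1.52-fold and Taco1, an activator of cytochrome oxidase translation, 1.66-fold. The elongation factor genes Tufm, Tsfm and Gfm1, named after their values were seen, had log2 fold changes of -0.13, -0.26 and -0.15 and were not called, though Tsfm was lower with library totals only (adjusted p = 0.0326).

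Of 6 mitochondrial transcription genes, 3 were higher and 0 lower in edgeR. Tefm, the elongation factor, rose from 5.40 ± 0.41 to 12.6 ± 1.16 CPM, and Tfam, which packs and transcribes mitochondrial DNA, from 59.0 ± 2.08 to 93.0 ± 9.29 CPM. Tfb2m rose 1.57-fold, and the polymerase Polrmt was not called (log2 fold change 0.15, adjusted p = 0.23), though it was higher without wild-type replicate 3 (adjusted p = 0.0235) or both libraries numbered 3 (0.0350). Of 10 nuclear regulators of mitochondrial genes, 5 were higher and 1 lower. Nrf1 and Yy1, named here for their motifs, were not called (log2 fold changes 0.08 and -0.08, adjusted p = 0.534 and 0.531). Gabpb1, a partner of the ETS factor Gabpa, went from 32.3 ± 1.12 to 64.5 ± 1.88 CPM on chromosome 2, and Gabpa itself was not called (log2 fold change -0.18, adjusted p = 0.0897), though it was lower with library totals only (0.0123) and with at least 1 CPM in 3 libraries (0.0411). The coactivator Ppargc1a fell 3.55-fold, from 1.65 ± 0.703 to 0.467 ± 0.148 CPM, while the related Ppargc1b rose 2.83-fold, the nuclear receptor Esrra 1.92-fold and Myc 9.48-fold, from 13.8, 17.7 and 54.8 CPM to 234, 216 and 362 CPM.

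**Figure D5:**
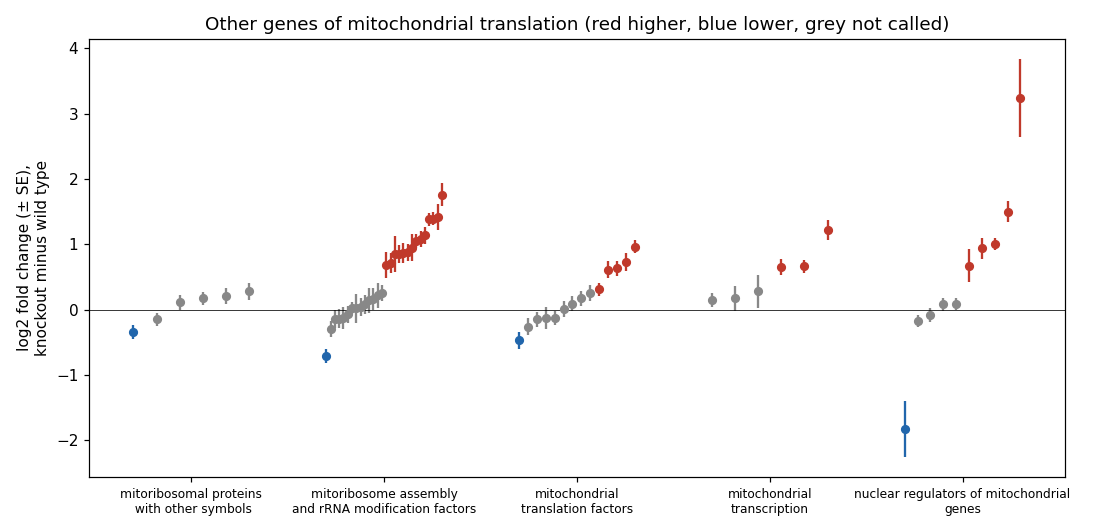
Log2 fold change, knockout-labelled minus wild type, with its standard error for the tested genes of 5 lists around the mitochondrial ribosome, ordered within each list. Red, blue and grey give genes higher, lower and not called at a false discovery rate of 5%: 14 of 28 assembly factors are red and 1 is blue. In the list of ribosomal proteins with other symbols, which includes Oxa1l, 0 of 6 are red and 1 is blue with all libraries, and 2 would be red and 0 blue without wild-type replicate 3.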

How the data were processed

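The deposited table holds raw counts that the authors made as whole numbers per NCBI Gene ID for 6 libraries, per the file headers, which also give each gene's symbol, chromosome and type. The submitters' processing notes name STAR 2.5.1b and mm10, and the labels a stranded total RNA kit. For the counting program, annotation and strand setting: not given in the sources used here. Column names were matched to sample titles by group and number.

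All genes were fitted in R 4.3.3 with edgeR 4.0.16: filterByExpr, TMM scaling, a robust quasi-likelihood fit with genotype alone, two-sided, Benjamini-Hochberg adjustment over the 15039 genes kept. The common dispersion was 0.0239, and the steps were tested on simulated data. CPM uses the scaled library sizes. Gene positions come from a RefSeq table of GRCm38, which mm10 denotes, and lengths and strands from GENCODE M21. Libraries of 27323577 to 37841558 counts gave each member at least 181 counts. Without molecular identifiers, reads may repeat a molecule.

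The members and lists were chosen with earlier results of these data known. Genes were named by a rule: up to 6 called and separated members by p in each direction and subunit, the 3 largest folds each way, the S18 paralogs, the stalk, misnamed members, extremes of level, those nearest the threshold, and up to 4 of each list by p. Others are named by place, chromosome, neighbour, motif or spread. The NRF1 and YY1 letters replaced longer patterns searched first. Alternatives were DESeq2 1.42.0 size factors and test, library totals, no filter, 1 CPM in 3 libraries, the replicate block, limma-voom (limma 3.58.1), libraries left out, structural RNA genes or shifted chromosomes left out, structural subunits and chromosome medians. Chosen after seeing the data were leaving out overlapping members, those of chromosome 2, and Mrps5 with Mrps26.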

Additional observations from a re-analysis of the deposited data

How the results depend on the processing

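Over 16 alternative fits, 60 of the 78 members kept their side of the threshold throughout and 0 called members changed direction. Large subunit calls ran from 17 to 26 higher and 5 to 12 lower, with 5 lower when overlapping members were left out. Small subunit calls were 17 higher and 3 lower, and went to 11 and 1 without the shifted chromosomes (fewer members), to 11 higher without overlapping members, and to 5 lower with library totals only or at least 1 CPM in 3 libraries. Single libraries left out gave 22 to 26 and 6 to 9 for the large and 14 to 18 and 2 to 3 for the small subunit.

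The large subunit's median log2 fold change was 0.15 with library totals only, 0.43 without the shifted chromosomes or both libraries numbered 3, 0.42 relative to chromosome medians, and 0.22 to 0.46 with single libraries left out. The small subunit's was 0.28 with library totals only. Large minus small was -0.05 by structure, -0.02 without both libraries numbered 3, 0.06 without the shifted chromosomes, 0.07 relative to chromosome medians and -0.12 to 0.02 with single libraries left out. The cause was not tested. The change in the large to small ratio, -0.32, was -0.184 without the shifted chromosomes, -0.108 without chromosome 2 and -0.151 without Mrps5 and Mrps26. Assembly factors lower went from 1 to 2 under both the library-total scaling and the minimum of 1 CPM in 3 libraries, and were 1 to 2 with single libraries left out. Same-numbered libraries deviated together with correlations of 0.0801, 0.092 and 0.264 for numbers 1, 2 and 3. Knockout replicate 1 correlated best with wild-type replicate 2 (0.146), so the numbers were not taken as pairs. The libraries numbered 3 did correlate best with each other, and what they share was not tested. With the replicate block, 42 members were higher and 11 lower (large subunit 24 and 7, small subunit 18 and 4).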
